A study of Homo sapiens with 6 samples.

Results

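Here 49 genes of DNA replication were followed in SKOV3 cells after silencing of NRCP. They are the genes that license origins, open them, copy the DNA at the fork, pack the new strands into chromatin and supply nucleotides. Members were all probes whose annotated symbol was 1 of the 49, which gave 75 probes of 47231, and each of the 49 genes had at least 1 probe. For summaries the probe with the highest mean signal stood for its gene, and in this way 20046 genes were named on the array. SKOV3 is an established human ovarian carcinoma line. The siNRCP group was SKOV3 treated for 48 h with siRNA against NRCP, a long non-coding RNA, and the sicontrol group was SKOV3 treated for the same 48 h with control siRNA, with 3 samples and 3 bead arrays in each. The siRNA sequences are not given in the sources used here, and separate cultures are not stated, so a p-value here reflects spread between samples that may be technical.

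In G1 the origin recognition complex (ORC), CDC6 and CDT1 load the MCM2 to MCM7 ring onto DNA, a step called licensing, and geminin later blocks CDT1 so that no origin is licensed again before the next division. In S phase the kinase CDC7 with DBF4 fires the origin, CDC45 and the GINS complex join the MCM ring to form the active helicase, and DNA polymerases follow with the clamp PCNA and its loader RFC. Many of these genes are transcribed under E2F factors as cells enter S phase, and their RNA is widely used as a sign of proliferation in carcinoma.

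Values are log2 bead intensities after background correction and quantile normalization. A change means a Benjamini-Hochberg adjusted p under 0.05 in limma over all 47231 probes, and differences are siNRCP minus sicontrol on the log2 scale with the SE of the fit. The mean raw intensity was 554, 373 and 486 on siNRCP arrays 1 to 3, against 563, 555 and 555 on sicontrol arrays 1 to 3. In raw signal siNRCP array 1 was thus nearly level with the sicontrol arrays, and siNRCP arrays 2 and 3 were dimmer. Of the fixed markers of an epithelial ovarian carcinoma line 9 of 9 lay above background on all arrays, with a summed linear signal of 32244 to 47243 on siNRCP and 35170 to 37510 on sicontrol arrays. For leukocytes 1 of 5 measured markers lay above background on all arrays (CD68, a lysosomal protein), for endothelium 0 of 4 and for fibroblasts 1 of 6 (COL1A1). Their summed signals were 1973 to 3215, 283 to 296 and 468 to 494 on siNRCP arrays, against 2112 to 2274, 269 to 304 and 464 to 476 on sicontrol arrays. On at least 3 arrays 1 endothelial marker (PECAM1) and 2 fibroblast markers (COL1A1 and COL1A2) lay above background. PTPRC, CD3E, VWF and CDH5 lay at background on all arrays. No probe carried the name NRCP, so its level is not analysed here and the group labels of the arrays could not be checked by it.

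The siNRCP arrays were not alike. Over 11558 genes above background, siNRCP array 1 had a Pearson correlation of 0.93 and 0.94 with siNRCP arrays 2 and 3, but of 0.97, 0.98 and 0.98 with sicontrol arrays 1 to 3. Arrays 2 and 3 of siNRCP correlated at 0.99. These are correlations across genes, which are not independent replicates. The label of siNRCP array 1 thus stands unchecked, and main results are also given without it. That array was singled out by its own values. Leaving it out removes the siNRCP array nearest to the sicontrol arrays, which by its construction tends to enlarge differences and narrow the spread, so the adjusted p-values of that fit are too small and describe those 5 arrays only. In that fit 31.3% of the 20046 genes, or 53.6% of those above background, passed. With any other single array left out, limma passed 0 of the 49 replication genes, with 6 to 12 at an unadjusted p under 0.05. Values given after "against" beside a value without siNRCP array 1 are the lowest and highest difference with 1 of the other 5 arrays left out. Genes that did not pass are not shown to be unchanged.

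A sequence feature was frequent in the control regions of these genes, though not present in all. RefSeq promoter windows (GRCh38.p14, 250 bases before to 50 after a gene's start) were found for 43 of the 49 genes, in 56 windows, and searched on both strands for 4 spellings of the E2F site, TTTCCCGC, TTTCGCGC, TTTGCCGC and TTTGGCGC. Forward and reverse matches may share bases. A match was present for 21 of 43 replication genes (48.8%), against 3.99% of all 27305 genes with a window. The window of CDT1, the licensing factor whose RNA changed, is shown whole with its match in capitals, 35 bases before the start.
CDT1, chr16:88803539-88803838, strand +: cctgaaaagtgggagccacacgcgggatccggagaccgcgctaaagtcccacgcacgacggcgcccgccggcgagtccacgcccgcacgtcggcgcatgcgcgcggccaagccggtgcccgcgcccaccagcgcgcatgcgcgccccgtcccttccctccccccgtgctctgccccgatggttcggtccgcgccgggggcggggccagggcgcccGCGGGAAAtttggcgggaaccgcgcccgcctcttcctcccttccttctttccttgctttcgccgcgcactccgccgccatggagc

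Shorter stretches around the match nearest the start are shown for genes at both ends of the later comparison. Matches are in capitals and each stretch reads 5′ to 3′ on the gene's strand. The first 6 genes passed as higher once siNRCP array 1 was left out.
MCM2, chr3:127598387-127598446, strand +: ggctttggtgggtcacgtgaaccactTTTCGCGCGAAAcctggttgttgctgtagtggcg
MCM3, chr6:52284713-52284772, strand -: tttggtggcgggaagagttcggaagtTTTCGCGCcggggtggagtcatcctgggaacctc
MCM6, chr2:135876496-135876555, strand -: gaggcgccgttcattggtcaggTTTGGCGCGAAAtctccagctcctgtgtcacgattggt
MCM7, chr7:100101373-100101432, strand -: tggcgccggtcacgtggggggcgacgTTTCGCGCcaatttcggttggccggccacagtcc
POLE, chr12:132687327-132687386, strand -: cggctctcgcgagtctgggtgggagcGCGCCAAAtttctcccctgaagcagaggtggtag
UHRF1, chr19:4909461-4909520, strand +: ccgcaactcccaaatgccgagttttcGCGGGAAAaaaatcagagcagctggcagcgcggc

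The next 4 genes passed as lower in that comparison.
GMNN, chr6:24775307-24775366, strand +: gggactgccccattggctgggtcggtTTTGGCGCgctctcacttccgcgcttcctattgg
GINS2, chr16:85688952-85689011, strand -: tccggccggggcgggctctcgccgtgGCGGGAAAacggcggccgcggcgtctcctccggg
PCNA, chr20:5126648-5126707, strand -: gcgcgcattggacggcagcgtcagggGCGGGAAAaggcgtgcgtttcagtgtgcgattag
POLE2, chr14:49688186-49688245, strand -: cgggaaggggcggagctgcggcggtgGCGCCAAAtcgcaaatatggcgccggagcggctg
In MCM2 and MCM6 a forward and a reverse match overlap. Of the genes that passed as higher without siNRCP array 1, 9 of 15 with a window held a match, and of those that passed as lower 5 of 12 did. A match describes these letters only.

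CDT1 was the single replication gene to change over all 6 arrays. Of the 49 genes 1 was higher and 0 were lower in siNRCP (limma), where 1.27% of all 20046 genes were higher and 1.51% were lower (2.78% in both directions, 1.65% of all probes and 4.83% of the 11558 genes above background). At an unadjusted p under 0.05 the fit held 8 genes with a positive and 7 with a negative difference, or 30.6% of the 49, against 33.6% of the genes above background and 20.5% of all genes. For 13 of the 49 (26.5%) the groups' arrays did not overlap, against 30.6% of genes above background and 22.3% of all genes. These shares lie near the background and are no result about replication genes as a group. The median difference was 0.11 log2 over the 49 and 0.01 over all genes, with 26 positive and 23 negative. By role the median was 0.45 for the MCM ring, 0.41 for nucleotide supply and 0.33 for chromatin genes, 0.075 for polymerases and primase, and -0.12 for RPA, -0.17 for licensing, -0.23 for origin firing and -0.45 for the clamp and its loader. In the fit without siNRCP array 1, 17 genes passed as higher and 14 as lower (63.3% of the 49, against 53.6% of genes above background), where 17.0% and 14.2% of all genes did, and the median was 0.14. This count rests on the choice of the array left out, since it was 0 without any other. In RNA from whole cultures, fewer cells of a type and less RNA per cell cannot be told apart.

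**Figure D1:**
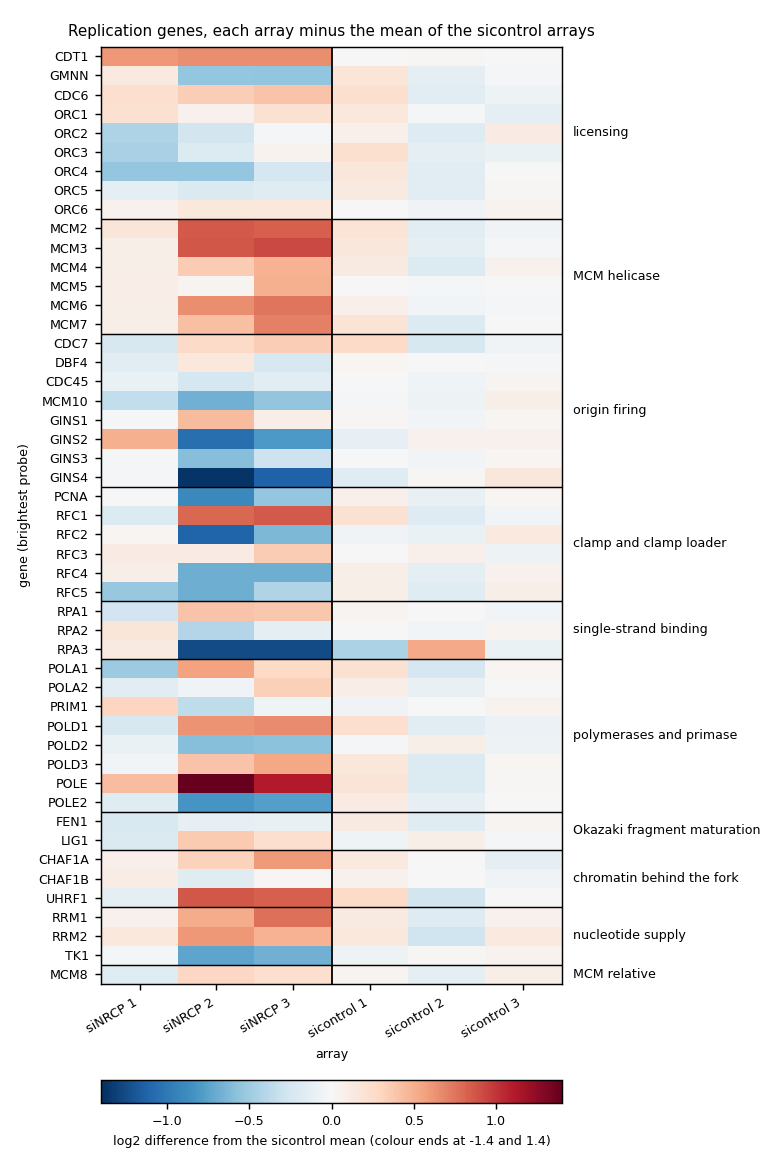
Heat map of the 49 replication genes (rows, grouped by role) on the 3 siNRCP and 3 sicontrol arrays (columns); colour is the log2 difference from the mean of the sicontrol arrays. CDT1 is raised on all 3 siNRCP arrays, whereas most other rows are coloured on siNRCP arrays 2 and 3 and pale on array 1.

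CDT1 brings the MCM ring to origins and is destroyed or held by geminin once S phase starts. It (probe ILMN_1651237) read 10.01, 10.05 and 10.06 on siNRCP arrays 1 to 3, against 9.40, 9.41 and 9.39 on sicontrol arrays 1 to 3. The 3 siNRCP arrays lay close together and far above the sicontrol arrays. CDT1 was 1.56-fold higher, with means of 10.04 ± 0.027 in siNRCP and 9.40 ± 0.011 in sicontrol (SD, n = 3 each; difference 0.64 ± 0.079, limma adjusted p = 0.015). The value hardly moved with any single array left out (0.63 to 0.65), but the call did. It held without siNRCP array 1 (limma adjusted p = 0.00022) and was lost without siNRCP array 2 (0.063) or 3 (0.08) and without sicontrol array 1 (0.096), 2 (0.099) or 3 (0.13). With median scaling the difference was 0.40 (limma adjusted p = 0.33).

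GMNN encodes geminin, the inhibitor of CDT1. It read 10.76, 10.08 and 10.07 on siNRCP arrays 1 to 3, against 10.79, 10.48 and 10.59 on sicontrol arrays 1 to 3. Arrays 2 and 3 of siNRCP lay below all sicontrol arrays, and array 1 lay within the sicontrol range. The difference was -0.32 ± 0.20 (limma adjusted p = 0.56), and without siNRCP array 1 it was -0.54 ± 0.12 (adjusted p = 0.0024, against -0.39 to -0.20 without another array). CDC6, the ATPase that works with CDT1 to load the ring, lay near background at 6.84, 6.95 and 7.01 on siNRCP arrays 1 to 3, against 6.83, 6.45 and 6.53 on sicontrol arrays 1 to 3. All 3 siNRCP arrays lay above the sicontrol arrays, but array 1 exceeded sicontrol array 1 by little. The difference of 0.33 ± 0.12 did not pass (limma adjusted p = 0.28), and without siNRCP array 1 it was 0.37 ± 0.12 (adjusted p = 0.044, against 0.25 to 0.43 without another array).

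None of the 6 ORC genes, whose products mark origins and form the platform for licensing, passed (0 with limma). ORC4 alone had an unadjusted limma p under 0.05, a level that held 33.6% of genes above background. ORC4 read 6.58, 6.58 and 6.89 on siNRCP arrays 1 to 3, against 7.28, 6.97 and 7.12 on sicontrol arrays 1 to 3, with all siNRCP arrays below the sicontrol arrays (-0.44 ± 0.13, limma adjusted p = 0.17). ORC2, ORC3 and ORC5 had negative differences of -0.24, -0.20 and -0.17 and overlapped between groups. ORC1, the subunit that human cells degrade in S phase, had 0.16 ± 0.11 and also overlapped. ORC6 had 0.12 ± 0.084 on a probe at 14.49 to 14.69, next to the highest value on the arrays (14.71), where a change cannot show in full. Its second probe gave -0.13 ± 0.23, and passed as lower without siNRCP array 1 (-0.40, limma adjusted p = 0.025). When siNRCP array 1 was left out, ORC4 passed as lower (-0.39, adjusted p = 0.039, against -0.54 to -0.35).

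The MCM2 to MCM7 genes, which encode the ring of the replicative helicase, had positive differences on all 6, although with median scaling MCM5 turned to -0.036 and MCM4 and MCM7 were at 0.063 and 0.047, where the median over genes above background was -0.14 instead of 0.02. None passed over the 6 arrays (0 with limma). MCM2, MCM3 and MCM6 had an unadjusted limma p under 0.05, as had 33.6% of all genes above background. MCM2 read 9.72, 10.41 and 10.38 on siNRCP arrays 1 to 3, against 9.75, 9.41 and 9.50 on sicontrol arrays 1 to 3. The siNRCP arrays 2 and 3 lay above every sicontrol array and array 1 lay among them. The difference was 0.62 ± 0.20 (limma adjusted p = 0.21), and without siNRCP array 1 it was 0.84 ± 0.12 (adjusted p = 6.9e-05, against 0.50 to 0.72 without another array). MCM3 had the same layout at a high signal, with 12.11, 12.90 and 12.95 on siNRCP arrays 1 to 3, against 12.19, 11.90 and 12.00 on sicontrol arrays 1 to 3. MCM6 read 11.58, 12.14 and 12.24 on siNRCP arrays 1 to 3, against 11.56, 11.45 and 11.46 on sicontrol arrays 1 to 3, and here siNRCP array 1 lay just above the sicontrol arrays. The difference was 0.62 ± 0.22 for MCM3 and 0.50 ± 0.17 for MCM6 (limma adjusted p = 0.27 and 0.25).

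For MCM7 the difference was 0.40 ± 0.17 and for MCM4 0.31 ± 0.14, with siNRCP array 1 inside the sicontrol range for both. MCM5 had 0.21 ± 0.13, carried by siNRCP array 3 at 10.14 against 9.75 and 9.69 on siNRCP arrays 1 and 2 and 9.64 to 9.66 on the sicontrol arrays. In the fit without siNRCP array 1, 5 of the 6 passed as higher, namely MCM2, MCM3 (0.88, adjusted p = 3.2e-05, against 0.48 to 0.71), MCM6 (0.70, adjusted p = 0.00014, against 0.38 to 0.53), MCM7 (0.56, adjusted p = 0.0046, against 0.26 to 0.50) and MCM4 (0.42, adjusted p = 0.018, against 0.21 to 0.38), while MCM5 did not (0.26, adjusted p = 0.2, against 0.070 to 0.30). In that fit 17.0% of all genes passed as higher, and 53.6% of genes above background passed in either direction. Second probes of MCM3 and MCM4 gave 0.32 ± 0.11 and 0.18 ± 0.14 over all 6 arrays. The dimmer probes of MCM7 gave 0.077 ± 0.084 and -0.0026 ± 0.091, the last close to background. MCM8 is a relative that works with MCM9 in recombination repair rather than in the ring. Its brightest probe, at 13.63 to 14.08, gave 0.12 ± 0.14, and its second, at 8.14 to 8.92, gave -0.27 ± 0.19. The sign for MCM8 thus depends on the probe.

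**Figure D2:**
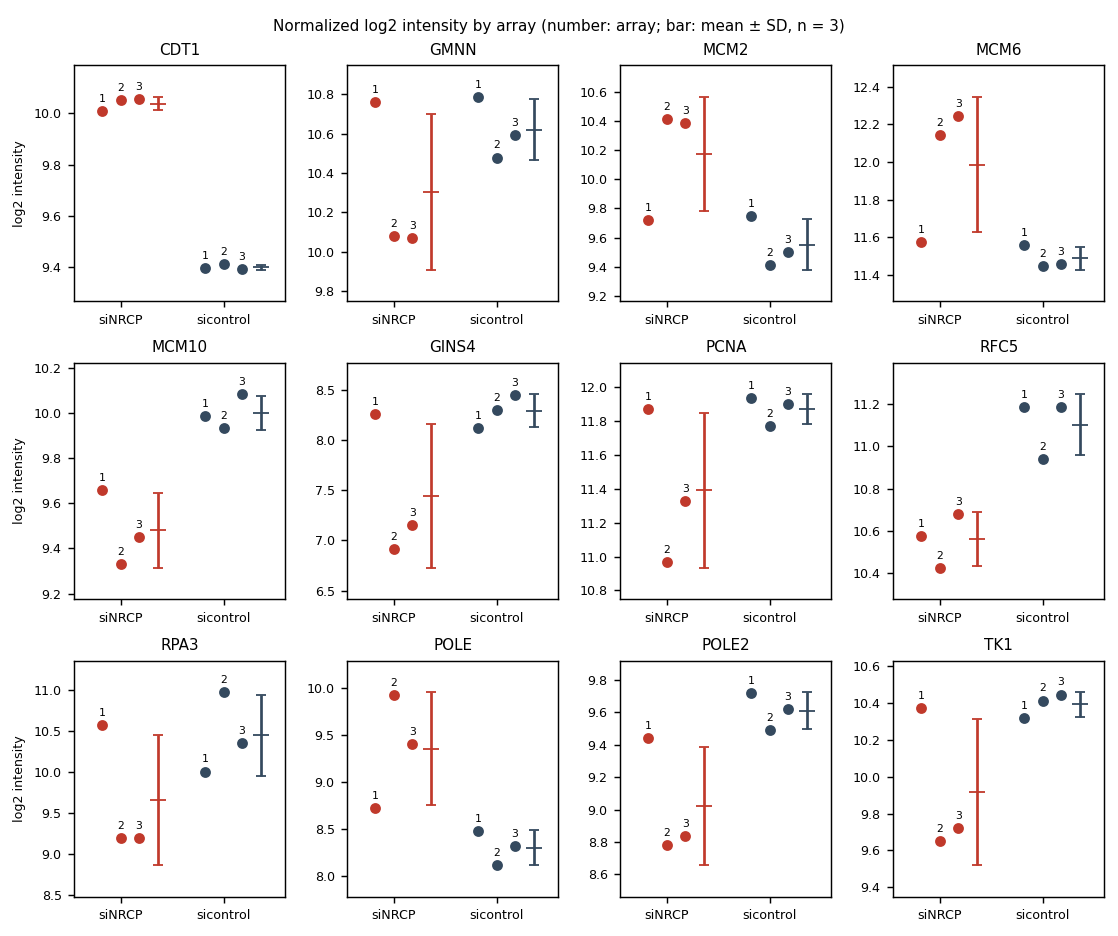
Normalized log2 intensity of 12 replication genes on each array (points, numbered by array) with the mean ± SD of each group (n = 3); axes are fitted to each gene and do not start at 0. CDT1, MCM6, MCM10, RFC5, POLE and POLE2 separate the groups on all arrays, MCM6 only just on siNRCP array 1. In GMNN, MCM2, GINS4, PCNA, RPA3 and TK1 siNRCP array 1 lies with the sicontrol arrays.

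Genes of origin firing had mostly negative differences (6 of 8), and none passed (0 with limma). MCM10 and GINS4 had an unadjusted limma p under 0.05, where 33.6% of genes above background lay. MCM10, a factor that helps to start the assembled helicase, read 9.66, 9.33 and 9.45 on siNRCP arrays 1 to 3, against 9.99, 9.93 and 10.08 on sicontrol arrays 1 to 3. All siNRCP arrays lay below all sicontrol arrays. The difference was -0.52 ± 0.11 (limma adjusted p = 0.075), its second probe gave -0.36 ± 0.10 (0.15), and without siNRCP array 1 the brighter probe passed at -0.60 ± 0.11 (adjusted p = 0.00059, against -0.55 to -0.45 without another array). CDC45, the helicase partner of MCM and GINS, also separated the groups, but by only -0.16 ± 0.087 (limma adjusted p = 0.47). CDC7, the firing kinase, had 0.13 ± 0.19, and its activator DBF4 had -0.072 ± 0.11 with 1 siNRCP and 3 sicontrol arrays above background.

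Of the 4 GINS subunits, which bind the MCM ring with CDC45, 3 had a negative difference. GINS4 read 8.26, 6.92 and 7.15 on siNRCP arrays 1 to 3, against 8.12, 8.30 and 8.45 on sicontrol arrays 1 to 3, the largest negative difference among the 49 genes. Array 1 of siNRCP lay with the sicontrol arrays and arrays 2 and 3 lay far below. The difference over all arrays was -0.85 ± 0.32 (limma adjusted p = 0.3), and without siNRCP array 1 it was -1.25 ± 0.12 (adjusted p = 2.5e-06, against -0.92 to -0.60 without another array). GINS2 read 10.07, 8.52 and 8.77 on siNRCP arrays 1 to 3, against 9.46, 9.63 and 9.63 on sicontrol arrays 1 to 3, so siNRCP array 1 lay above and arrays 2 and 3 below all sicontrol arrays. The difference for GINS2 was -0.45 ± 0.36 (limma adjusted p = 0.67) with all arrays, and -0.93 ± 0.12 (adjusted p = 2.3e-05, against -0.51 to -0.16 without another array) without siNRCP array 1. GINS3 had -0.30 ± 0.15 and passed as lower without siNRCP array 1 (-0.44, adjusted p = 0.012, against -0.32 to -0.16), and GINS1, near background, had 0.17 ± 0.13.

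PCNA, the clamp that holds polymerases on DNA, read 11.87, 10.97 and 11.33 on siNRCP arrays 1 to 3, against 11.94, 11.77 and 11.90 on sicontrol arrays 1 to 3. Again siNRCP array 1 lay within the sicontrol range and the other two lay below it. The difference was -0.48 ± 0.21 (limma adjusted p = 0.38), and without siNRCP array 1 it was -0.71 ± 0.12 (adjusted p = 0.00039, against -0.52 to -0.27 without another array). A dimmer PCNA probe gave -0.038 ± 0.23, with siNRCP array 1 at 7.79, above all sicontrol arrays (7.12 to 7.37), and arrays 2 and 3 at 6.90 and 6.96, below them. The mean over all PCNA probes gave -0.13, and it includes a further probe that lay at background on all arrays (0.13 ± 0.090).

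The RFC genes encode the loader that opens PCNA and closes it around DNA, with RFC1 as the large subunit. RFC5 read 10.58, 10.42 and 10.68 on siNRCP arrays 1 to 3, against 11.19, 10.94 and 11.19 on sicontrol arrays 1 to 3. All siNRCP arrays lay below the sicontrol arrays (-0.54 ± 0.11, limma adjusted p = 0.071). Without siNRCP array 1 RFC5 passed at -0.55 ± 0.12 (adjusted p = 0.0032, against -0.62 to -0.48 without another array). It did not pass with any other single array left out (limma adjusted p = 0.16 to 0.34). RFC2 averaged 8.05 ± 0.57 in siNRCP and 8.62 ± 0.12 in sicontrol (SD, n = 3 each), with siNRCP array 1 inside the sicontrol range and arrays 2 and 3 below it. For RFC4 siNRCP array 1 was level with the highest sicontrol array and arrays 2 and 3 lay below all of them. The differences were -0.57 ± 0.26 for RFC2 and -0.43 ± 0.21 for RFC4 (limma adjusted p = 0.4 and 0.44). RFC1 ran the other way on siNRCP arrays 2 and 3, with 9.75, 10.75 and 10.81 on siNRCP arrays 1 to 3, against 10.16, 9.76 and 9.91 on sicontrol arrays 1 to 3 (0.49 ± 0.28, limma adjusted p = 0.51). On the 5 arrays without siNRCP array 1, RFC1 passed as higher (0.82, adjusted p = 0.00011, against 0.31 to 0.60), and RFC2 (-0.87, adjusted p = 0.00018, against -0.62 to -0.30) and RFC4 (-0.68, adjusted p = 0.00025, against -0.50 to -0.30) passed as lower. RFC3 had 0.19 ± 0.10 and did not pass in either fit. A dimmer RFC2 probe had the opposite sign (0.24 ± 0.12), so the direction of RFC2 rests on its brighter probe, and the mean over its probes gave -0.17.

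RPA, the trimer that coats single-stranded DNA, also had differences of both signs, and no subunit passed over the 6 arrays (0 of 3 with limma, also at an unadjusted p under 0.05). Its small subunit gene RPA3 read 10.58, 9.20 and 9.20 on siNRCP arrays 1 to 3, against 10.01, 10.98 and 10.36 on sicontrol arrays 1 to 3, with nearly 1 log2 unit between sicontrol arrays 1 and 2. The difference was -0.79 ± 0.40 (limma adjusted p = 0.46), and without siNRCP array 1 it was -1.24 ± 0.19 (adjusted p = 0.00013, against -1.01 to -0.52 without another array). RPA1, the large subunit that holds most of the DNA contacts, read 11.13, 11.81 and 11.78 on siNRCP arrays 1 to 3, against 11.44, 11.40 and 11.37 on sicontrol arrays 1 to 3, with array 1 of siNRCP below and arrays 2 and 3 above all sicontrol arrays. Its difference was 0.17 ± 0.18 (limma adjusted p = 0.77), turned to -0.13 with median scaling, and was 0.39 ± 0.11 (adjusted p = 0.013, against 0.057 to 0.19 without another array) without siNRCP array 1. RPA2 had -0.12 ± 0.15 and did not pass in either fit.

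**Figure D3:**
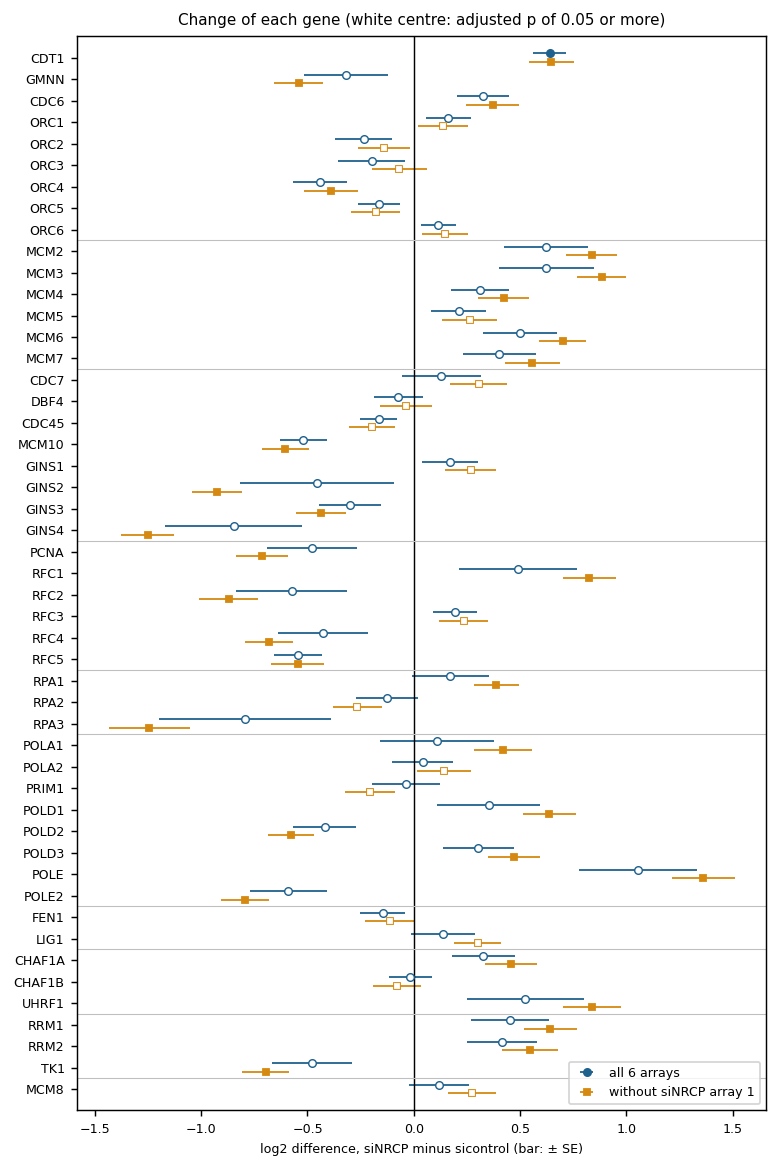
Difference siNRCP minus sicontrol (log2, ± SE) of each of the 49 genes over all 6 arrays (circles) and without siNRCP array 1 (squares), with filled symbols for an adjusted p under 0.05. CDT1 alone is filled over all arrays, and 31 squares are filled, 17 right and 14 left of 0.

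POLE, the catalytic subunit of the leading-strand polymerase epsilon, had the largest positive difference among the 49 genes. It read 8.73, 9.93 and 9.41 on siNRCP arrays 1 to 3, against 8.48, 8.11 and 8.32 on sicontrol arrays 1 to 3. All siNRCP arrays lay above the sicontrol arrays, array 2 by the most and array 1 by the least. The difference of 1.05 ± 0.28 (2.08-fold) did not pass (limma adjusted p = 0.14), and without siNRCP array 1 it was 1.36 ± 0.15 (adjusted p = 5.5e-06, against 0.77 to 1.14 without another array). POLE2, the accessory subunit of the same polymerase, had the opposite sign, with 9.44, 8.78 and 8.84 on siNRCP arrays 1 to 3, against 9.72, 9.49 and 9.62 on sicontrol arrays 1 to 3. The arrays did not overlap for POLE2 either (-0.59 ± 0.18, limma adjusted p = 0.19), and without siNRCP array 1 it was -0.79 ± 0.11 (adjusted p = 6e-05, against -0.65 to -0.48 without another array).

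Polymerase delta, which extends the lagging strand, had differences of both signs too. Its accessory subunit gene POLD2 read 9.96, 9.45 and 9.48 on siNRCP arrays 1 to 3, against 10.04, 10.13 and 9.99 on sicontrol arrays 1 to 3, with all siNRCP arrays below the sicontrol arrays by amounts from slight on array 1 to clear on arrays 2 and 3 (-0.42 ± 0.15, limma adjusted p = 0.26). The catalytic subunit gene POLD1 had 0.35 ± 0.24 and POLD3, a further accessory subunit, had 0.30 ± 0.17. With siNRCP array 1 left out, POLD2 passed as lower (-0.58, adjusted p = 0.00075, against -0.45 to -0.33) and POLD1 (0.64, adjusted p = 0.0011, against 0.20 to 0.47) and POLD3 (0.47, adjusted p = 0.0097, against 0.18 to 0.38) as higher. Polymerase alpha and primase, which lay down the primers, did not pass, with 0.11 ± 0.27 for POLA1, 0.041 ± 0.14 for POLA2 and -0.037 ± 0.16 for PRIM1 (limma adjusted p = 0.92, 0.94 and 0.96). POLA1 and POLA2 turned to -0.12 and -0.21 with median scaling. Of these, POLA1 passed as higher without siNRCP array 1 (0.42, adjusted p = 0.039, against -0.12 to 0.21). FEN1 and LIG1, the nuclease and the ligase that finish Okazaki fragments, had -0.15 ± 0.10 and 0.14 ± 0.15. On these brightest probes they did not pass in either fit. A dimmer FEN1 probe gave -0.35 ± 0.16 (limma adjusted p = 0.39) and passed as lower without siNRCP array 1 (-0.52, adjusted p = 0.0021).

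The chromatin genes behind the fork did not pass (0 of 3 with limma, also at an unadjusted p under 0.05). UHRF1, which guides maintenance DNA methylation to new strands, read 10.62, 11.62 and 11.58 on siNRCP arrays 1 to 3, against 11.02, 10.49 and 10.74 on sicontrol arrays 1 to 3. Arrays 2 and 3 of siNRCP lay above every sicontrol array and array 1 lay within the sicontrol range (0.52 ± 0.28, limma adjusted p = 0.47), and without siNRCP array 1 the difference was 0.84 ± 0.14 (adjusted p = 0.00022, against 0.36 to 0.66 without another array). Of the subunits of the histone chaperone CAF-1, CHAF1A had 0.33 ± 0.15 and CHAF1B had -0.017 ± 0.10, and CHAF1A passed as higher without siNRCP array 1 (0.46, adjusted p = 0.012, against 0.19 to 0.40).

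Nucleotide supply genes had differences of both signs and did not pass over the 6 arrays (0 of 3 with limma, 3 of 3 at an unadjusted p under 0.05). At that unadjusted level lay 33.6% of the genes above background. RRM1 and RRM2 encode the subunits of ribonucleotide reductase, the enzyme that makes deoxynucleotides. RRM2 read 8.40, 8.85 and 8.74 on siNRCP arrays 1 to 3, against 8.40, 7.97 and 8.38 on sicontrol arrays 1 to 3 (0.41 ± 0.16, limma adjusted p = 0.32), and siNRCP array 1 was level with the highest sicontrol arrays. RRM1 had 0.45 ± 0.18 (limma adjusted p = 0.33). TK1, the thymidine kinase of the salvage route, read 10.37, 9.65 and 9.72 on siNRCP arrays 1 to 3, against 10.32, 10.41 and 10.45 on sicontrol arrays 1 to 3, with siNRCP array 1 inside the sicontrol range and the others below it (-0.48 ± 0.19, limma adjusted p = 0.32). Once siNRCP array 1 was left out, RRM1 (0.64, adjusted p = 0.001, against 0.30 to 0.52) and RRM2 (0.55, adjusted p = 0.0059, against 0.27 to 0.48) passed as higher and TK1 (-0.70, adjusted p = 0.00014, against -0.51 to -0.35) as lower.

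The siNRCP arrays 2 and 3 gave nearly the same picture of the 49 genes. Both lay on the same side of the sicontrol mean for 45 of 49 genes, and array 1 was on that side too for 27. For 42 genes both lay outside the range of the sicontrol arrays on 1 side. Of these 42, siNRCP array 1 lay within the sicontrol range for 18, outside it on the same side for 13 and outside it on the other side for 11. These counts were not made over all genes, so they are no result about replication genes as a group. The median absolute difference from the sicontrol mean was 0.14 on siNRCP array 1, against 0.52 and 0.49 on arrays 2 and 3. Over all 20046 genes, which include genes at background, it was 0.14 on array 1, against 0.21 and 0.19 on arrays 2 and 3. Across the 49 genes the differences of arrays 2 and 3 had a Pearson correlation of 0.95 with each other, and their mean had 0.14 with array 1. All of them are set against the same sicontrol mean, so these correlations are descriptions.

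**Figure D4:**
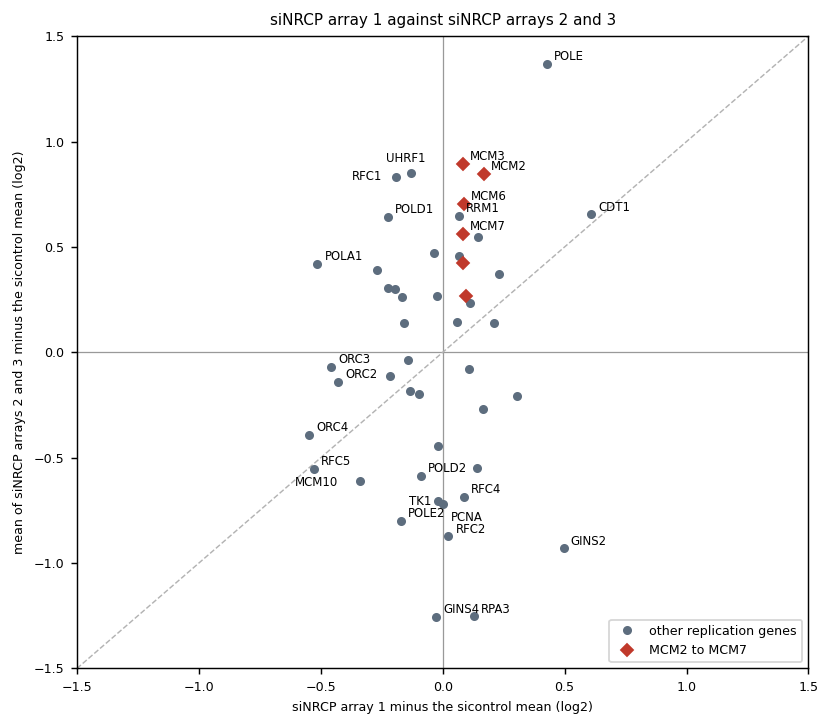
Each of the 49 genes by its log2 difference from the sicontrol mean on siNRCP array 1 (horizontal) and on the mean of siNRCP arrays 2 and 3 (vertical), with MCM2 to MCM7 as diamonds and equality as a dashed line. CDT1 lies near the dashed line, MCM2 to MCM7 lie near 0 on the horizontal axis at positive vertical values, and GINS2 lies on opposite sides of 0.

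Genomic span, the length of a gene from its first to its last base, varied with this difference between siNRCP arrays (span was looked at after these values were known). Among the 24 genes with a span under the members' median of 36675 bases, siNRCP arrays 2 and 3 minus array 1 had a median of -0.11 and 13 were below 0. Among the 24 above it the median was 0.39 and 5 were below 0. The Spearman correlation with span was 0.45 over the 49 genes and 0.42 over 11550 genes above background. The genes that passed as higher without siNRCP array 1 had a median span of 44248 bases and those that passed as lower 16177. There were exceptions, as 4 of the 14 that passed as lower (ORC4, RPA3, MCM10 and POLE2) had a span over the members' median and 7 of the 17 that passed as higher had a span under it. CDT1, at 5470 bases, differed by 0.05 between siNRCP arrays 2 and 3 and array 1. The same 49 genes also spread within sicontrol, where array 1 minus arrays 2 and 3 correlated at 0.71 (Pearson) with siNRCP arrays 2 and 3 minus array 1, against 0.65 over 11550 genes. These are correlations across genes that share arrays, and the part of this spread in the differences between groups was not tested.

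**Figure D5:**
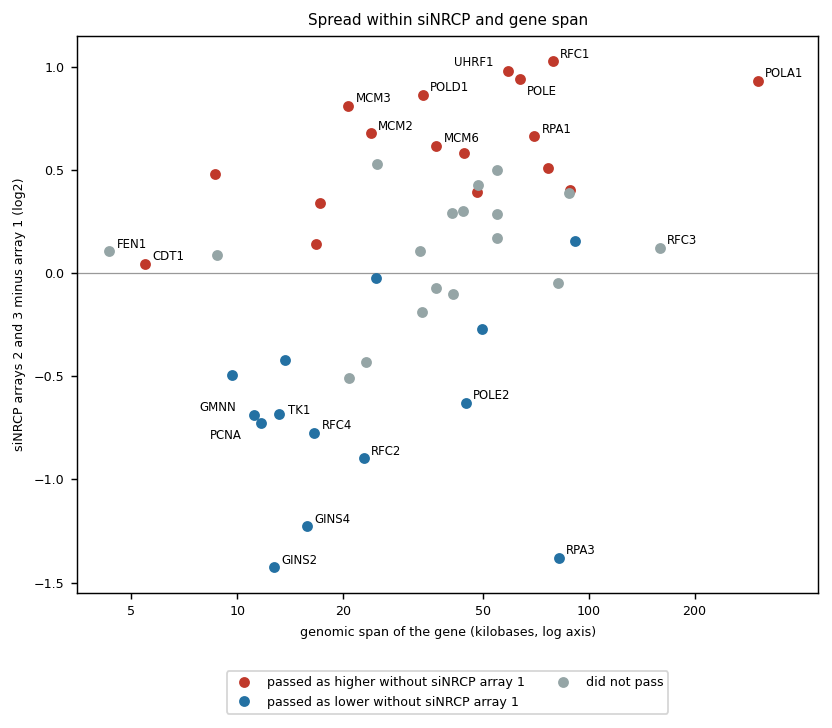
Difference between siNRCP arrays 2 and 3 and siNRCP array 1 (log2, vertical) against the genomic span of each of the 49 genes (kilobases, log axis). Genes that passed as lower without siNRCP array 1 lie mostly at short spans (10 of 14 under the members' median, not ORC4, RPA3, MCM10 and POLE2), and 10 of the 17 that passed as higher lie above it.

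Genes around the replication machinery were read from the same fit, in 4 lists chosen for their roles. Of 109 listed genes 104 had a probe, and 0 were higher and 3 lower. Of all genes 1.27% were higher and 1.51% lower, and 4.83% of genes above background passed in either direction. E2F5, a repressive E2F factor that binds the pocket proteins, was lower, with 7.77, 7.66 and 7.74 on siNRCP arrays 1 to 3, against 9.47, 9.54 and 9.40 on sicontrol arrays 1 to 3 (-1.75 ± 0.087, 3.36-fold lower, limma adjusted p = 0.0011). All 3 siNRCP arrays lay far below the sicontrol arrays, array 1 included, and E2F5 passed whichever array was left out. CDKN1A, which encodes the CDK inhibitor p21 that also binds PCNA, was lower, with 8.23, 7.96 and 7.91 on siNRCP arrays 1 to 3, against 9.34, 9.79 and 9.40 on sicontrol arrays 1 to 3 (-1.47 ± 0.15, limma adjusted p = 0.0094). Its second probe lay at background. CDKN1A passed without siNRCP array 1 or 2 and not without siNRCP array 3 (limma adjusted p = 0.057) or sicontrol array 1 (0.069), 2 (0.066) or 3 (0.095).

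NASP, a histone chaperone that feeds histones H3 and H4 to replicating chromatin, was lower too, with 7.73, 7.97 and 7.92 on siNRCP arrays 1 to 3, against 8.59, 8.51 and 8.65 on sicontrol arrays 1 to 3 (-0.71 ± 0.099, limma adjusted p = 0.021). It passed without siNRCP array 1 and not without siNRCP array 2 (0.062) or 3 (0.093) or sicontrol array 1 (0.12), 2 (0.11) or 3 (0.16). It was the 1 of 40 measured genes of the other fork and licensing list to pass, and that list's median was 0.10, with 7 positive and 2 negative genes at an unadjusted p under 0.05. The nucleotide synthesis list (23 measured) and the S-phase checkpoint list (11 measured) held 0 that passed, with medians of 0.07 and 0.17. At an unadjusted p under 0.05 limma held 4 positive and 3 negative genes in the nucleotide list, and 3 and 2 in the checkpoint list. The E2F, RB and G1/S list (30 measured), which holds E2F5 and CDKN1A, had a median of 0.10, with 13 positive and 6 negative at that level. This level held 20.5% of all genes and 33.6% of genes above background.

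A few regulators and S-phase genes of these lists were named whatever their values, and none passed (0 with limma; CCNE1 at an unadjusted p under 0.05). E2F1, an activating E2F factor, had -0.18 ± 0.15 and cyclin E1 (CCNE1), the partner of CDK2 at the start of S phase, had -0.63 ± 0.12 (limma adjusted p = 0.68 and 0.057). For CCNE1 all siNRCP arrays lay below the sicontrol arrays, with 7.96, 7.91 and 8.01 on siNRCP arrays 1 to 3, against 8.84, 8.48 and 8.45 on sicontrol arrays 1 to 3. CCNE2 lay at background on all arrays. DTL and SKP2, both substrate receptors of ubiquitin ligases that destroy CDT1, had 0.10 ± 0.25 and 0.079 ± 0.14 (limma adjusted p = 0.92 and 0.88) and turned to -0.13 and -0.19 with median scaling. DNMT1, the maintenance methyltransferase that UHRF1 recruits, had 0.45 ± 0.28, TOP2A, the topoisomerase that untangles new DNA, had 0.077 ± 0.20 and TYMS, thymidylate synthase, had 0.26 ± 0.16. Their limma adjusted p was 0.57, 0.92 and 0.55. Without the first siNRCP array, DNMT1 (0.78, adjusted p = 0.00036, against 0.21 to 0.57) and DTL (0.40, adjusted p = 0.048, against -0.064 to 0.24) passed as higher and CCNE1 (-0.63, adjusted p = 0.0015, against -0.70 to -0.50) as lower.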

How the data were processed

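Total RNA of 3 siNRCP and 3 sicontrol samples was read on Illumina bead arrays, 1 per sample. The intensity values in the deposited table were bead signals that the authors exported with BeadStudio (no version is given there), per the submitters' processing notes, without normalization or detection p-values. Log2 values in the deposited series matrix had been quantile normalized by the authors, as all columns share 1 distribution (median 7.01). They differed from log2 and quantile normalized intensities by at most 0.065, and were used as an alternative.

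Intensities were background corrected (normexp, offset 50), log2 transformed, quantile normalized and fitted over all 47231 probes by lmFit and eBayes of limma 3.58.1 under R 4.3.3, with no covariate. Benjamini-Hochberg adjustment ran over all probes. Symbols came from the platform annotation: 30113 probes had 1 symbol, 8 several and 17110 none, and 30074 were matched to RefSeq by Entrez identifier. Background was the 95th percentile of 437 olfactory receptor probes on each array, and above it on at least 3 arrays counted as above background. Gene spans and promoter windows came from RefSeq tables (GRCh38.p14).

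The members, the lists and the naming rule were chosen with earlier results of these data known. By that rule, values on every array were given for members that passed, the 6 with the largest difference and CDT1, GMNN, CDC6, MCM2, PCNA, RRM2 and TK1; from the other lists every gene that passed and a few set genes were named; further array values are shown for genes chosen after their values were seen. The fit was tested on simulated data. The number of arrays limits the precision.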

Additional observations from a re-analysis of the deposited data

How the results depend on the processing

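The count of 1 higher and 0 lower replication gene was 0 higher with a normexp offset of 16, median scaling, eBayes with trend and robust options and the replicate block, and CDT1 was the gene lost (adjusted p = 0.075, 0.33, 0.17 and 0.16). The cause was not tested. Cyclic loess gave 1 lower (RFC5, -0.54, adjusted p = 0.034). Array weights gave 15 higher and 12 lower, with a weight of 0.28 for siNRCP array 1 against 0.73 to 2.21 for the others. With 1 array left out the count ranged from 0 to 17 higher and from 0 to 14 lower, the highest without siNRCP array 1. The median of 0.11 was -0.12 with median scaling and -0.011 to 0.14 with 1 array left out, the lowest without sicontrol array 2. Median scaling moved the median of all genes above background from 0.02 to -0.14. It moved the calls over all probes from 348 higher and 433 lower to 43 and 211. The members' median lay above that of genes above background in both, but by less with median scaling (-0.12 against -0.14). Between arrays of a group the members' median had an SD of 0.094 log2. The other lists, with 0 higher and 3 lower, gave 1 higher with an offset of 16, 1 and 5 with cyclic loess, 34 and 17 with array weights, 0 lower with the replicate block, and 0 to 36 higher and 1 to 20 lower with 1 array left out. Differences near 0 changed sign. With median scaling these were ORC1 (-0.011), MCM5 (-0.036), CDC7 (-0.092), RFC3 (-0.021), RPA1 (-0.13), POLA1 (-0.12), POLA2 (-0.21), LIG1 (-0.083), MCM8 (-0.11), TOP2A (-0.23), DTL (-0.13) and SKP2 (-0.19). With the mean of a gene's probes they were ORC6 (-0.0081), PRIM1 (0.057) and MCM8 (-0.040), and with array weights CCNE2 (0.077). With 1 array left out the differences ran over -0.19 to 0.0015 for DBF4, -0.27 to 0.019 for RPA2, -0.12 to 0.42 for POLA1, -0.10 to 0.14 for POLA2, -0.21 to 0.12 for PRIM1, -0.079 to 0.060 for CHAF1B, -0.054 to 0.31 for TOP2A, -0.064 to 0.40 for DTL, -0.0049 to 0.20 for SKP2 and -0.10 to 0.057 for CCNE2. Whether replicate numbers pair the samples was not settled. The deviations of arrays with the same number correlated at -0.65, -0.47 and -0.24 over 11558 genes. Deviations within a group sum to 0 and siNRCP array 1 stood apart, so these values are linked and cannot decide it. The replicate block gave 0 calls over all probes, with 4887 at an unadjusted limma p under 0.05. Other counts over all probes, 781 in all, were 210 higher and 259 lower with the trend and robust options, 8167 with array weights and 5 to 9933 with 1 array left out. Probes near background or near the highest value limit what a change can show, as for ORC6, DBF4 and GINS1.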

Other observations

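The promoter windows of the replication genes also often held CCAAT, the core of the NF-Y site, searched on both strands. It was present for 27 of 43 genes (62.8%), against 39.7% of all 27305 genes with a window. Of the genes that passed as higher without siNRCP array 1 it was present for 12 of 15, and of those that passed as lower for 7 of 12. Genes with more than 1 listed start have more than 1 window to hold a match, as do 43 replication genes with 56 windows and 27305 genes with 35116.

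Probes of a gene did not always agree. Of the 49 genes 20 had more than 1 probe, which gave 20 further probes above background and 6 at background. Of the 20 above background 15 had the sign of the brightest probe and 5 the opposite sign. The 5 lay in ORC6, MCM7, RFC2, PRIM1 and MCM8.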
